A study of Mus musculus with 14 samples.

Results

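The genes described here are 10 mouse genes of Slit and Robo signaling, chosen by name: the secreted ligands Slit1, Slit2 and Slit3, the receptors Robo1, Robo2, Robo3 and Robo4, and the cytoplasmic effectors Srgap1, Srgap2 and Srgap3. They are 10 of 21887 protein-coding genes. Their bodies with 10 kb on either side held 362 of the 177684 regions obtained by merging the peaks of all libraries, and 246 of these 362 were open in at least 1 line, against 119359 of the 177684. Open means here that both libraries of a line had a peak in the region, and closed means that neither had. Of the 362 regions, 346 overlapped a gene body and 16 lay in the flanks. The windows of Robo3 and Robo4, which are neighbors on chromosome 9, overlap and share regions.

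ATAC-seq, which uses a transposase to tag accessible DNA with adapters, was run on 7 cell lines from mouse small cell lung cancer, each with 2 libraries. Of the 3 lines labelled RPR2, 12N1G and N2N1G came from lymph node metastases and 1373M1 came from a liver metastasis. Of the 4 lines labelled RPR2;Nfibf/f, called Nfibf/f below, the liver metastasis lines were 1398M1 and 1399M4 and the lung tumor lines 1398P2 and 1399P1. In this field RPR2 denotes conditional deletion of Rb1, Trp53 and Rbl2, tumor suppressor genes, which both genotypes carry, and Nfibf/f denotes a conditional allele of Nfib, a transcription factor gene named in the title of the series in connection with metastasis. The sources used here do not give age, the driver of the recombinase or whether a line is 1 clone. Genotype and tissue are crossed only in the 3 liver metastasis lines, so elsewhere the 2 cannot be told apart. Nothing in the labels makes the 2 libraries of a line separate cultures, so their spread may be technical, and the line was the replicate. The relation of 1398M1 to 1398P2, and of 1399M4 to 1399P1, which share a number, is not known here. All tests treated these 4 as separate lines, and none paired or merged those that share a number. Should they be related, the SDs and p-values rest on fewer independent units than the n given.

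Slit proteins are large secreted glycoproteins that bind the immunoglobulin domains of Robo receptors. They were first known as repellents for growing axons, and they also guide migrating cells and blood vessels. The srGAP proteins bind the intracellular part of Robo receptors. In lung cancer the pathway is known for its effects on cell migration and for promoter silencing of SLIT2. Small cell lung cancer is a neuroendocrine tumor that expresses many neuronal genes.

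The listed starts of Slit2, Slit3, Robo1 and Robo2 are shown because the results below turn on which of them lay in a peak. Each sequence runs from 250 bases before a start to 50 after it, 5′ to 3′, from RefSeq on GRCm38.p6. Capitals mark TTGGC (or GCCAA on the other strand), an element bound by nuclear factor I proteins.
Slit2, chr5:47982905-47983204, + strand: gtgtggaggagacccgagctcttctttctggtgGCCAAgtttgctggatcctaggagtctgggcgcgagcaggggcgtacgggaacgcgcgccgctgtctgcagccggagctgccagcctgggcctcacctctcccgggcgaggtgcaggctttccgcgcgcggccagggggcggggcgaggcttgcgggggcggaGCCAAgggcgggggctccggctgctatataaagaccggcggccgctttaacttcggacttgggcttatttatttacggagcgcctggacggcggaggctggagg
Slit3, chr11:35121206-35121505, + strand: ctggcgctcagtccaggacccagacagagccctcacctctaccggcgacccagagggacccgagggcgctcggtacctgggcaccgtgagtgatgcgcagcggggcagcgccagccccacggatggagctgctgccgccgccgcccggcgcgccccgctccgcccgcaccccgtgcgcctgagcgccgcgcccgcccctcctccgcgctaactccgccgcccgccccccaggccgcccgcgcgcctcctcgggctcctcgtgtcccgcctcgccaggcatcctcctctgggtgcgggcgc
Robo1, chr16:72662899-72663198, + strand: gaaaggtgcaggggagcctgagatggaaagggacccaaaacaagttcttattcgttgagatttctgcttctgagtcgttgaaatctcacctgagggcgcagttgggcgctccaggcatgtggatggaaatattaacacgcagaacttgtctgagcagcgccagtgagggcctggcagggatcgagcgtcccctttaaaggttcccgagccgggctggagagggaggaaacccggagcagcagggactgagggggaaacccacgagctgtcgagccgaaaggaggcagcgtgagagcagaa
Robo2 outer start, chr16:75447244-75447543, - strand: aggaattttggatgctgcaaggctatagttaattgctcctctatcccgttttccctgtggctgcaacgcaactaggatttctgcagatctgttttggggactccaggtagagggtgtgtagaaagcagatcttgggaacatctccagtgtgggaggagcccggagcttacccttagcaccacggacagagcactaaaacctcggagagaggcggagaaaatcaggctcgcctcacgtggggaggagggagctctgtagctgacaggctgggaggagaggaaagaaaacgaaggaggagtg
Robo2 middle start, chr16:75092721-75093020, - strand: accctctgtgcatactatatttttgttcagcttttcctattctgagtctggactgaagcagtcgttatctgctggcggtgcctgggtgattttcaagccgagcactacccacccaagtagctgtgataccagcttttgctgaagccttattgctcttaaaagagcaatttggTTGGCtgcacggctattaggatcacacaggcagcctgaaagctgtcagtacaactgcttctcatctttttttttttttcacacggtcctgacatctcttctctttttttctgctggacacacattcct
Robo2 inner start, chr16:74411776-74412075, - strand: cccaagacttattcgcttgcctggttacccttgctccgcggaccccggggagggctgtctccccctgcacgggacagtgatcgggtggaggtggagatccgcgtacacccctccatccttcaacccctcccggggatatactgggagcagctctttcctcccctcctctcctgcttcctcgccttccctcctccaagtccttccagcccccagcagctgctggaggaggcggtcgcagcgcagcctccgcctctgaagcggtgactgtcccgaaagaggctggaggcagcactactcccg
Among 21263 such windows over all genes, 47.9% held at least 1 TTGGC on either strand, so matches at these genes are a description and not sites. The table had 11 windows for 9 of the genes. TTGGC occurred at 2 positions for Slit2, at 4 for Srgap2 and at 1 each for Robo4 and the middle Robo2 start. The full palindrome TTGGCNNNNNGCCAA was in none of the 11 and in 0.0329% of all windows. CpG dinucleotides numbered 41 in the Slit3 window, 37 in that of Srgap1, 30 in that of Slit2 and 2 in that of Robo4, against a median of 13 over all windows. Slit1 had no window in the table.

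Peaks per library numbered 65009 to 84220 in 13 libraries and 33558 in replicate 2 of 1398P2, which stands apart and also had the lowest depth, 0.507 fragments per base against 0.632 to 1.134. Values that this line moves are given with and without it. Of 5 neuroendocrine markers with a listed promoter, 4 lay in a peak there in all 14 libraries. Promoters of the hepatocyte genes Alb, Afp, Apoa1 and Tat and of the leukocyte genes Ptprc and Cd3e lay in no peak in any library. The same held for the fibroblast gene Pdgfra and the lung epithelium gene Nkx2-1. The promoter of Col1a2, a fibroblast gene, had a peak in 3 RPR2 and 1 Nfibf/f libraries. Of the neuron genes, Rbfox3 had a promoter peak in 4 and 0, Map2 in 6 and 8, and Neurod1 in 6 and 7. Summed regions overlapped between genotypes for every marker list other than the endothelial one. Over 6 endothelial markers the summed regions were 17 to 19 in RPR2 lines and 9.5 to 15.5 in Nfibf/f lines, without a test, and most of the gap came from Cdh5 (means of 5 and 1.5) and Pecam1 (5.33 and 3.62). In mean regions, Tek (4.67 and 4.25), Kdr (1.67 and 1.25) and Tie1 (0.67 and 0) differed less and Emcn the other way (0.5 and 0.75). The Tek promoter did differ: 5 RPR2 libraries (of 6) had it under a peak, but only 1 Nfibf/f library (of 8). For the Kdr promoter these numbers were 6 and 7. The promoters of Tie1 and Emcn lay in no peak, and Cdh5 and Pecam1 had no listed promoter. Fewer cells of a type and less accessibility per cell cannot be told apart in bulk samples.

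The number of accessible regions per gene was the outcome of the comparison between genotypes. It compares lines by genotype label. Loss of NFIB in the Nfibf/f lines was not measured here, so dependence on NFIB, the question in the title, was not tested. Slit2 had about 2-fold more regions in RPR2 lines and was the only 1 of the 10 genes whose lines did not overlap between genotypes. Slit1, Srgap3 and Robo2 had higher means in RPR2 lines with overlapping lines, and the other genes had similar means. None of the 9 tested genes passed limma's test adjusted over all 7070 genes, where 1.41% passed (0.438% with more regions in RPR2 lines). At an unadjusted p under 0.05 there were 3 of 9, Slit1, Slit2 and Srgap3, all with more regions in RPR2 lines, where 10.8% of all genes passed in that direction and 21.9% in either. The log2 difference was positive for 7 of 9 members and for 52.7% of all genes, with a median of 0.09 over the 9 and 0.00 over all genes.

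**Figure D1:**
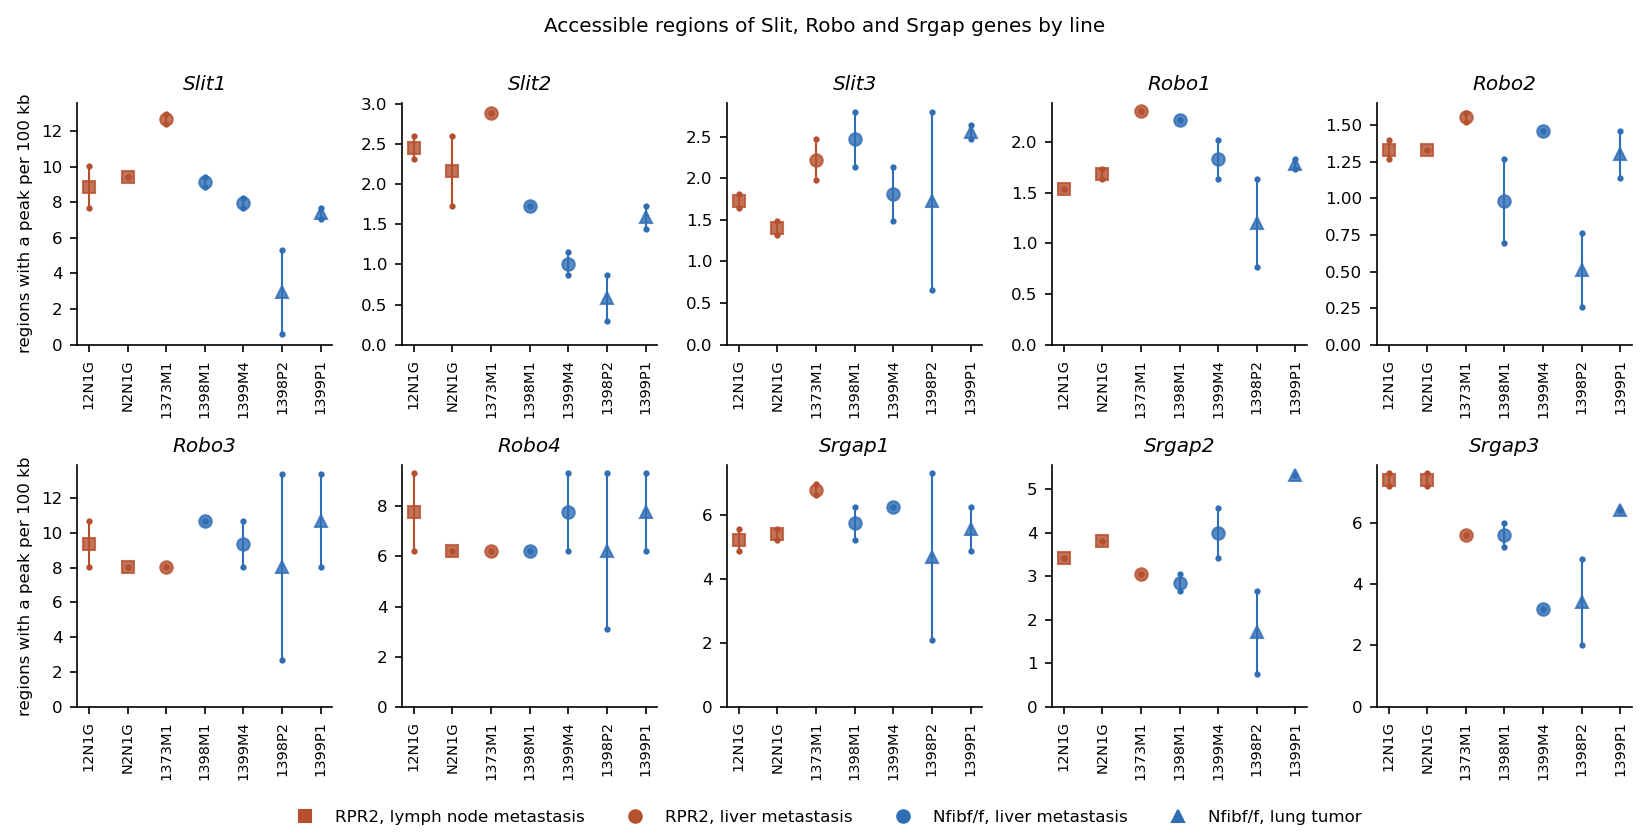
Regions with a peak per 100 kb of gene body plus flanks (vertical axis) for the 10 genes in the 7 lines (horizontal axis); large symbols are line means, small points the 2 libraries joined by a line. Slit2 ranged from 2.17 to 2.89 in the RPR2 lines and from 0.58 to 1.73 in the Nfibf/f lines, and the points of 1398P2 lie far apart for most genes.

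Slit2 (chr5:47981291-48307735) encodes the ligand best known for repelling axons at the midline. Its 2 libraries had peaks in 8 and 9 regions in 12N1G, 9 and 6 in N2N1G and 10 and 10 in 1373M1. In the Nfibf/f lines they had peaks in 6 and 6 regions in 1398M1, 3 and 4 in 1399M4, 3 and 1 in 1398P2 and 6 and 5 in 1399P1. The lowest RPR2 library thus tied with the highest Nfibf/f libraries, and the line means did not overlap; over all genes, 5.08% had line means that did not overlap with more regions in RPR2 lines, and 5.71% in the other direction. Means were 8.67 ± 1.26 regions (SD, n = 3 lines) and 4.25 ± 1.85 (SD, n = 4 lines). The log2 difference after scaling was 1.04 ± 0.26 (SE; limma adjusted p = 0.0704). Leaving out replicate 2 of 1398P2 gave 1.06 (limma adjusted p = 0.0739), and leaving out the whole line gave 0.85 (limma adjusted p = 0.156). The gene passed when 1398M1 was left out (1.22, limma adjusted p = 0.0462) and in a fit of the 14 libraries that called 4.84% of all genes. Across all alternatives in which it was tested the adjusted p ranged from 0.0304 to 0.297. Local background at its summits, in multiples of the floor of each library, was 1.3 to 4.34 in RPR2 and 1 to 2.02 in Nfibf/f libraries; its part in the result was not tested, nor was that of the endothelial markers.

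Of the Slit2 regions seen more often in RPR2 libraries, 2 lay close to its start. The region over the start itself (chr5:47982781-47984573) had a peak in all 6 RPR2 libraries and in 7 of 8 Nfibf/f libraries, the exception being replicate 2 of 1398P2. The next region, 2 kb downstream (chr5:47984732-47985602), had a peak in every RPR2 library (6 of 6) and in 0 of 8 from Nfibf/f lines. A further one at 3 kb (chr5:47985886-47986519) had peaks in 5 of 6 and 0 of 8. Both were weak peaks: the fold enrichment of the 2 kb region stood at the 1.8 to 18.1 percentile of each library's own peaks, with a median of 7.3. Called peaks around the start of Slit2 therefore covered more bases in RPR2 lines, which does not measure signal within a peak. The region over the start itself stood at the 19.3 to 45.2 percentile in RPR2 libraries. In Nfibf/f libraries with a peak there it stood at 37.5 to 73.1, and such ranks were not compared between libraries.

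Bases under peaks within 5 kb of the Slit2 start numbered 2651 and 1835 in 12N1G, 2029 and 2165 in N2N1G and 1723 and 1677 in 1373M1. They numbered 990 and 1203 in 1398M1, 1229 and 747 in 1399M4, 1099 and 0 in 1398P2 and 1190 and 1619 in 1399P1. All 6 RPR2 libraries lay above all 8 Nfibf/f libraries. Line means were 2013 ± 281 bp (SD, n = 3) and 1010 ± 354 bp (SD, n = 4), with an exact two-sided permutation p of 0.0571, the smallest that 3 against 4 lines can give. The Nfibf/f mean was 1147 ± 179 bp without replicate 2 of 1398P2 and 1163 ± 216 bp without that line, and the lines did not overlap in either case. Of 17523 starts with any peak nearby, 4.25% had line means that did not overlap with more bases in RPR2 lines and 8.82% in the other direction. This measure was chosen after the map of Slit2 had been seen.

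Farther into Slit2, a region at 98.4 kb (chr5:48081287-48081868) had a peak in all 6 RPR2 libraries and in both libraries of 1398M1, and in no other library. It ranked high where present, at the 75.3 to 97.1 percentile of fold enrichment. The region at 21 kb (chr5:48003753-48004541) was the only one of the gene that had a peak in all 14 libraries. Slit2 also hosts Mir218-1, the precursor of miR-218-5p, a microRNA enriched in motor neurons, and Slit3 hosts Mir218-2, which gives the same mature sequence. It is printed with the seed, bases 2 to 8, in capitals.
miR-218-5p: uUGUGCUUgaucuaaccaugu
The nearest region open in any line lay 16.8 kb from the microRNA sequence in Slit2 and 7.6 kb from it in Slit3, so no peak called in both libraries of a line lay at either copy.

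Slit1 (chr19:41597824-41747275), a ligand expressed mainly in the nervous system, was a little above the median of all tested genes in regions for its length. It had 8.35 regions per 100 kb on average over the lines, the 59.6 percentile of all tested genes, whose median was 7.08. Line values were 15 regions in 12N1G, 16 in N2N1G and 21.5 in 1373M1, and 15.5, 13.5, 5 and 12.5 in 1398M1, 1399M4, 1398P2 and 1399P1. The high value was that of 1373M1 and the low value that of 1398P2, whose replicates had 9 and 1, and the groups overlapped. The log2 difference was 0.67 ± 0.28 (SE; limma adjusted p = 0.207), 0.41 without 1398P2 (adjusted p = 0.311) and 1.06 without its replicate 1 alone (adjusted p = 0.455). Of its 30 regions open in a line, 0 were open in all 7 lines, against 14.9% over all regions open in a line. Replicate 2 of 1398P2, with a peak in only 1 Slit1 region, limits that count. Another 5 were open in 1373M1 and closed in every other line, against 2.82% over all regions open in a line.

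Local background at Slit1 was raised in the RPR2 lines. It stood at 4.54 to 6.14 times the floor in the 6 RPR2 libraries and at 1.13 to 2.13 times in the 8 Nfibf/f libraries, with no overlap. Within 1 Mb on either side of its window it was 2.58 to 3.92 times and 1.36 to 2.51 times, and over chromosome 19 as a whole 2.54 to 3.45 and 1.48 to 2.64. The part of this background in the count of Slit1 regions was not tested. In Slit3 the same measure was 1.31 to 1.89 in RPR2 and 1.44 to 2.25 in Nfibf/f libraries.

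Slit3 (chr11:35121456-35708507), the third ligand, known from diaphragm and blood vessel development, differed from Slit2 in having a higher mean in Nfibf/f lines. It had 10.5 regions in 12N1G, 8.5 in N2N1G and 13.5 in 1373M1, against 15, 11, 10.5 and 15.5 in 1398M1, 1399M4, 1398P2 and 1399P1. The groups overlapped widely, and the log2 difference was -0.25 ± 0.19 (SE; limma adjusted p = 0.476). It was -0.08 without replicate 2 of 12N1G and -0.10 without replicate 1. Its start, in a CpG-rich window, had a peak in 2 of 14 libraries, replicate 2 of N2N1G and replicate 1 of 1398M1. Across all windows of this kind, 45.5% lay in a peak in all 14 libraries and 33.3% in none. With 1.99 regions per 100 kb Slit3 stood at the 4.7 percentile, next to Slit2 at 1.77 (the 3.7 percentile), and both were sparse beside Slit1.

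Single Slit3 regions were specific to either genotype. The region at 318.9 kb from the start (chr11:35439989-35440774) was called in 6 of 6 libraries of RPR2 and in 0 of 8 of Nfibf/f, at a median fold percentile of 76.6. A region at 518.4 kb (chr11:35638940-35640678) had the reverse pattern, 0 of 6 and 8 of 8, at a median percentile of 43.4. The region of the gene with the highest mean percentile, 80.6 (chr11:35280749-35281293), was open in the 3 RPR2 lines, 1398M1 and 1399P1.

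Among the receptors, Robo1 (chr16:72027518-73047491), a main Slit receptor of the nervous system, held the most regions open in all 7 lines. There were 6 among its 41 regions open in a line, a share close to the 14.9% over all regions open in a line. The whole list had 14 among 246 (5.69%). The 6 of Robo1 included the listed start (chr16:72662863-72664513) and 2 regions downstream of it, at 115.7 kb (chr16:72778424-72779248) and 296.3 kb (chr16:72959026-72959935). Both ranked near the top of their libraries, with median fold percentiles of 95.1 and 96.6. Region counts for the whole gene were 16, 17.5 and 24 in 12N1G, N2N1G and 1373M1, and 23, 19, 12.5 and 18.5 in 1398M1, 1399M4, 1398P2 and 1399P1. The groups overlapped, the log2 difference was 0.08 ± 0.19 (SE; limma adjusted p = 0.868), and its sign turned in 6 alternatives.

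Robo1 regions were also counted on either side of its listed start, a division made after the map had been seen. The listed start lies well inside the annotated body. At the outer 5′ end of the body, 635.1 kb before the listed start, a region (chr16:72027571-72028431) had a peak in 6 of 6 RPR2 libraries and in 1 of 8 Nfibf/f libraries, and its neighbor (chr16:72028609-72029547) in 6 of 6 and 3 of 8. A region 574.5 kb before the listed start (chr16:72088122-72089219) had a peak in 6 of 6 and 0 of 8. From 1 kb before the listed start to the 3′ end, Nfibf/f lines had 12.75 ± 2.33 regions (SD, n = 4) and RPR2 lines 10.33 ± 1.04 (SD, n = 3), an exact two-sided permutation p of 0.171. With all libraries kept the lines overlapped. Without replicate 2 of 1398P2 the Nfibf/f mean was 13.75 ± 1.44 and the lines did not overlap (exact permutation p = 0.0571, the smallest these lines allow). No share over comparable parts of other genes was computed, and for whole genes it was 5.71% in this direction. Upstream of the listed start the means were 5.5 ± 2.27 and 8.83 ± 3.21 with overlap (exact permutation p = 0.286).

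**Figure D2:**
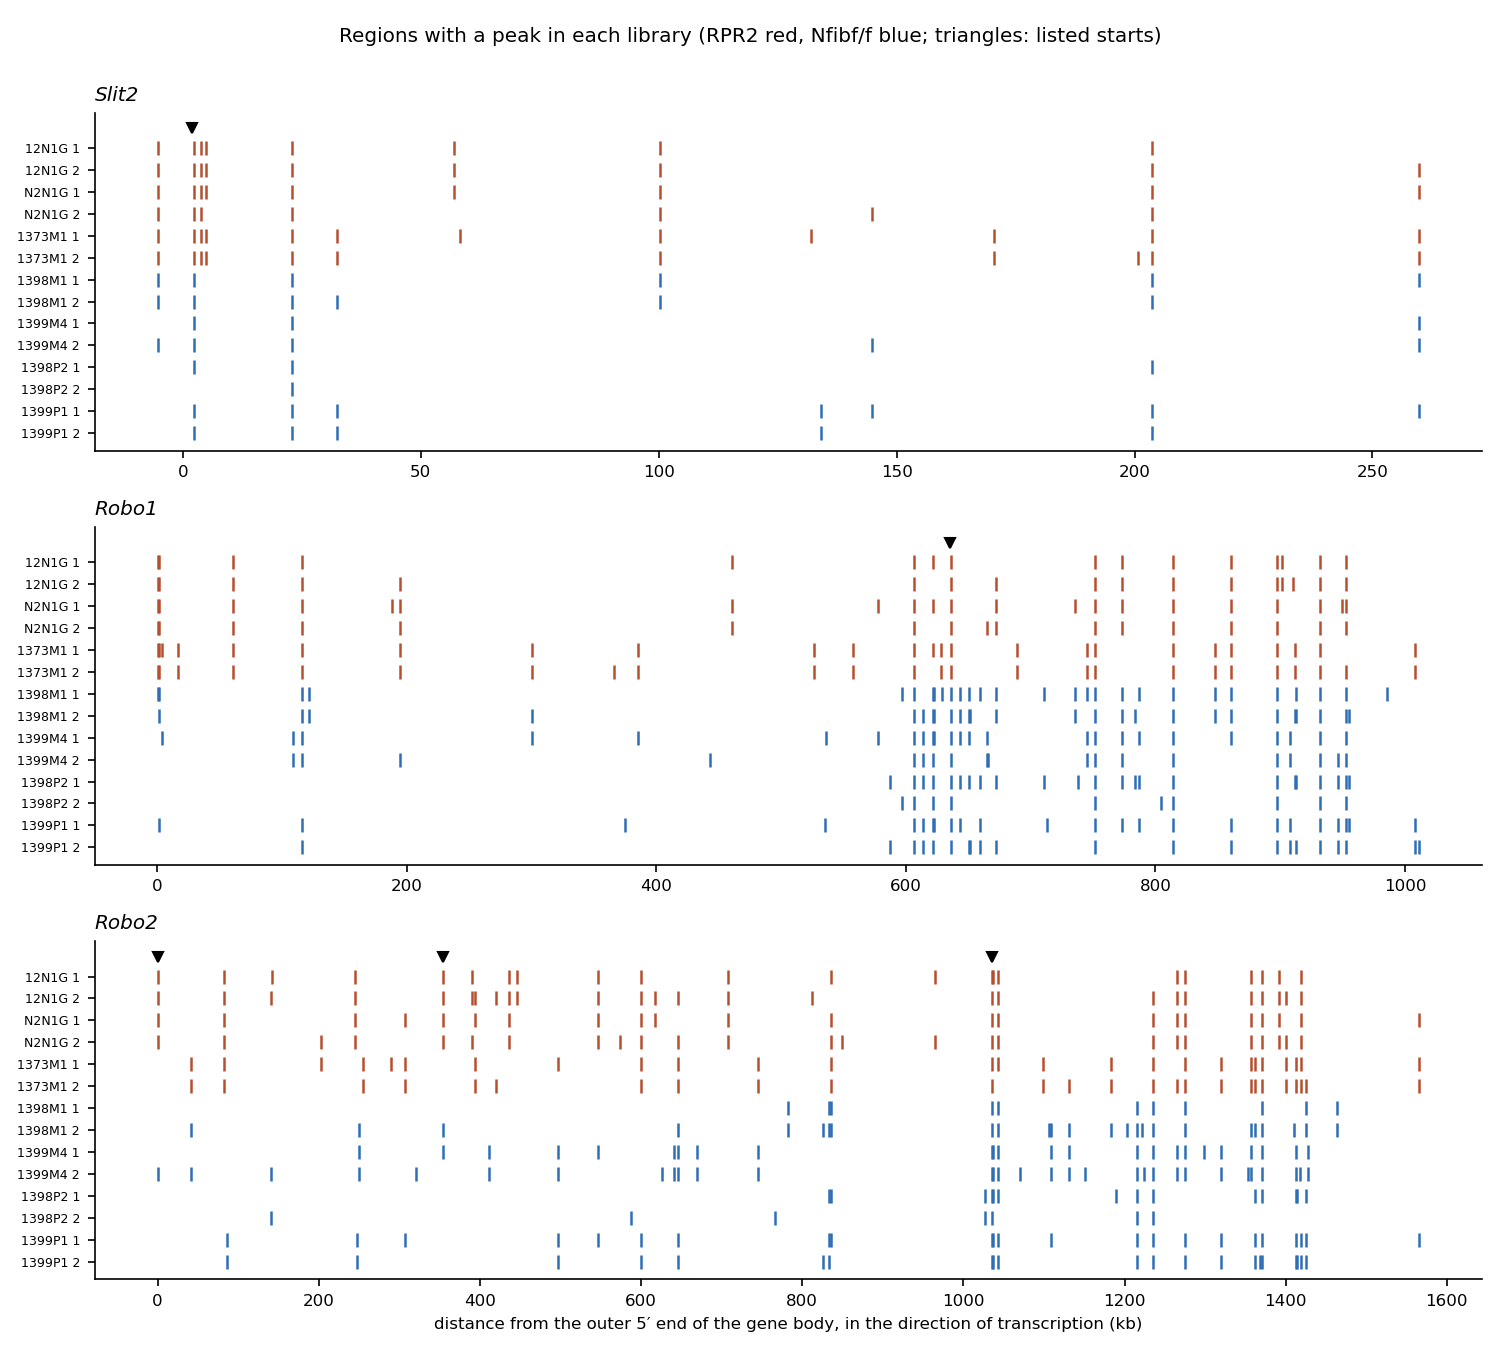
Every region with a peak (ticks) in each of the 14 libraries (rows, RPR2 red and Nfibf/f blue) along Slit2, Robo1 and Robo2, by distance in kb from the outer 5′ end of the gene body; triangles are the listed starts. Red ticks are more frequent 5′ of the inner start of Robo2, where RPR2 lines averaged 10.67 regions and Nfibf/f lines 5.88, and the ticks beside the Slit2 start that are red alone are the regions at 2 and 3 kb.

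Robo2 (chr16:73891976-75447443), a receptor that works beside Robo1 in axon guidance and in kidney development, is the longest gene of the list and the sparsest, with 1.21 regions per 100 kb (the 1.8 percentile). Its counts were 21, 21 and 24.5 regions in 12N1G, N2N1G and 1373M1, and 15.5, 23, 8 and 20.5 in 1398M1, 1399M4, 1398P2 and 1399P1. The groups overlapped through 1399M4, and the log2 difference was 0.49 ± 0.24 (SE; limma adjusted p = 0.259). It was 0.28 without 1398P2 (adjusted p = 0.387).

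The 3 listed starts of Robo2 behaved differently. The inner start lay in a peak in all 14 libraries. The outer start lay in a peak in all 4 lymph node libraries, in neither library of 1373M1 and in 1 of 8 Nfibf/f libraries, replicate 2 of 1399M4. The middle start lay in a peak in the same 4 lymph node libraries, in replicate 2 of 1398M1 and in replicate 1 of 1399M4. The outer and middle starts were therefore open in 12N1G and N2N1G alone; of all windows, 2.57% were open in these 2 lines and closed in 1373M1. The third RPR2 line, 1373M1, from a liver metastasis, had 0 bases under peaks within 5 kb of either start, and this difference between RPR2 lines was not tested.

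The part of Robo2 between the outer 5′ end and 1 kb before the inner start had 11.5 regions in 12N1G, 11 in N2N1G and 9.5 in 1373M1. Numbers in 1398M1, 1399M4, 1398P2 and 1399P1 were 5, 9, 2 and 7.5, so that the lines did not overlap. No share over comparable parts of other genes was computed; for whole genes it was 5.08% in this direction. Means were 10.67 ± 1.04 (SD, n = 3) and 5.88 ± 3.07 (SD, n = 4; exact two-sided permutation p = 0.0571, the smallest these lines allow), and 6.12 ± 2.66 in Nfibf/f lines without replicate 2 of 1398P2. From the inner start to the 3′ end the means were 11.5 ± 3.04 and 10.88 ± 3.57 (exact permutation p = 0.857). The division of Robo1 and Robo2 at the start that had a peak in every library was made after their maps had been seen, and the difference between the 2 parts was not tested. Local background at Robo2 was 1 to 1.11 times the floor in RPR2 and 1 to 1.42 times in Nfibf/f libraries.

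Of single Robo2 regions, 1 (chr16:75365326-75365940), in the 5′ part, was called in 6 of 6 libraries of RPR2 and in 0 of 8 of Nfibf/f. Another (chr16:74231873-74232368), 179.7 kb downstream of the inner start, had peaks in 0 of 6 and 8 of 8, at a median fold percentile of 70.6. Robo2 also held 4 of the 11 member regions open in both lymph node lines and closed in every other line. The region with the highest mean fold percentile, 78.4 over the libraries with a peak (chr16:74847070-74847646), was open in the 3 RPR2 lines and 1399P1.

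Robo3 (chr9:37416045-37433436), a divergent receptor that regulates midline crossing of axons, and Robo4 (chr9:37401902-37414023), the receptor of endothelial cells, are short genes. Robo3 had 3.5, 3 and 3 regions in 12N1G, N2N1G and 1373M1 and 4, 3.5, 3 and 4 in 1398M1, 1399M4, 1398P2 and 1399P1; the difference on the log2 scale was -0.16 ± 0.13 (SE; limma adjusted p = 0.495). Robo4 had 2 or 2.5 regions in every line and was not tested, since its mean of 2.21 was under the minimum of 3. Neither gene was open at its listed start in any line. For Robo4 the start lay in no peak in any library. For Robo3 it lay in a peak in 3 of 8 Nfibf/f and 0 of 6 RPR2 libraries, and never in both libraries of a line. All 4 regions in the Robo4 window, 3 of them open in a line, also lay in the Robo3 window, so the Robo4 counts are not separate from those of Robo3. The only 1 of these shared regions with a peak in all 14 libraries (chr9:37420597-37421725) had a median fold percentile of 81.7. It lies within the body of Robo3.

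Near both starts the Nfibf/f lines had more bases under peaks. Within 5 kb of the Robo3 start they had 743 ± 431 bp (SD, n = 4) against 306 ± 7 bp (SD, n = 3), and of the Robo4 start 304 ± 66 bp against 50 ± 86 bp. Lines did not overlap in either case, as for 8.82% of all starts in this direction. The Robo3 mean rests on 1398P2: it was 548 ± 223 bp without that line and 1075 ± 1071 bp without its replicate 2. At the inner Robo2 start the means were 1200 ± 86 bp in RPR2 and 1507 ± 269 bp in Nfibf/f lines, and at the Robo1 start 1256 ± 107 bp and 1217 ± 119 bp, with overlap in both. Without replicate 2 of 1398P2 the mean at the inner Robo2 start was 1744 ± 313 bp in Nfibf/f lines, and the lines no longer overlapped. The share over all starts was not computed without this library.

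**Figure D3:**
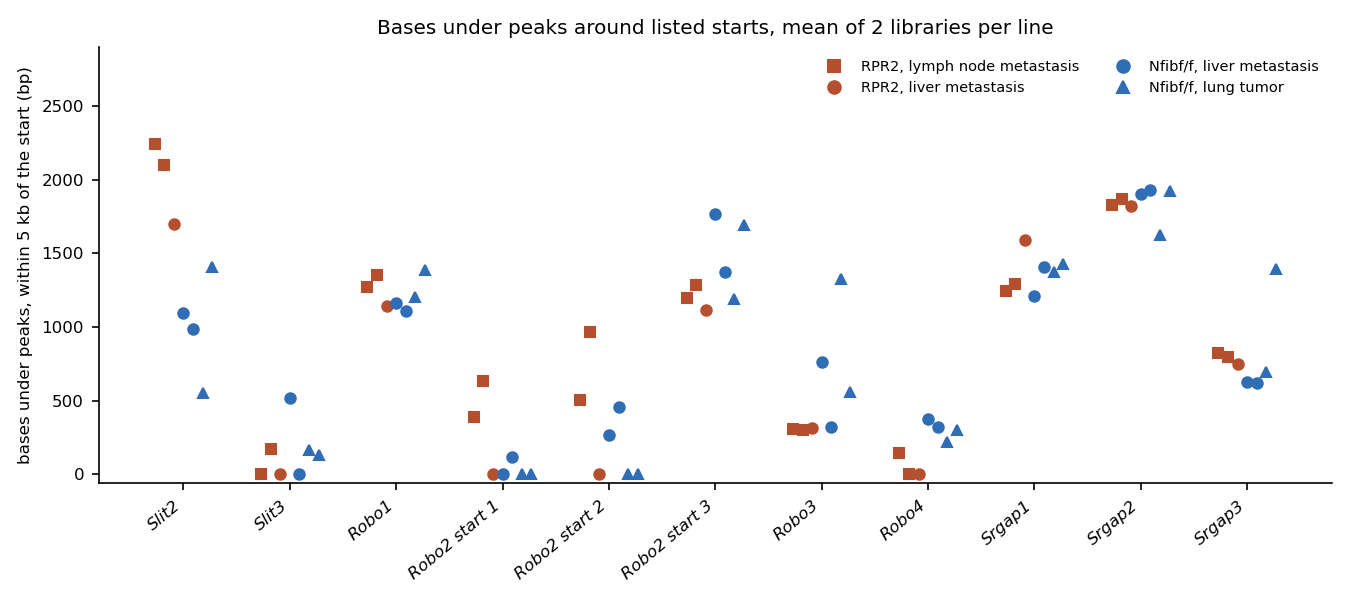
Bases under peaks within 5 kb of each listed start (vertical axis, bp; mean of 2 libraries per line) for 11 starts of 9 genes (horizontal axis), with 1 symbol per line; Robo2 start 1 is the outer and start 3 the inner one. At Slit2 the 3 RPR2 lines lie at 1700 to 2243 bp, above the 4 Nfibf/f lines at 549.5 to 1404.5 bp.

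The effectors Srgap1, Srgap2 and Srgap3 all had a peak at the listed start in all 14 libraries. Bases under peaks around these starts overlapped between genotypes, at 1376 ± 189 and 1356 ± 97 bp for Srgap1 and 1840 ± 28 and 1846 ± 148 bp for Srgap2 (RPR2 and Nfibf/f; SD, n = 3 and 4). Without replicate 2 of 1398P2 the Srgap2 mean was 1982 ± 126 bp in Nfibf/f lines, which then all lay above the RPR2 lines. With all libraries kept, 8.82% of all starts had no overlap in this direction, and the share without this library was not computed. Of the 11 listed starts of the genes described here, 5 had a peak in all 14 libraries, and 45.5% of all windows did. The starts of Slit3, Robo3 and Robo4 were open in no line.

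Srgap3 (chr6:112717971-112947505), known from neuronal development, had 18.5, 18.5 and 14 regions in 12N1G, N2N1G and 1373M1, and 14, 8, 8.5 and 16 in 1398M1, 1399M4, 1398P2 and 1399P1. The lymph node lines were the highest, and 1373M1 tied with 1398M1. Means were 17 ± 2.6 and 11.62 ± 3.99 (SD, n = 3 and 4). The difference on the log2 scale was 0.58 ± 0.23 (SE; limma adjusted p = 0.178), and 0.55 without 1398P2 (adjusted p = 0.322). Srgap3 held 3 of the 10 genotype-specific regions of the list, all inside the gene. The regions at 164.5 kb (chr6:112782507-112783097) and 82 kb (chr6:112864913-112865533) from its start were called in 6 of 6 libraries of RPR2 and in 0 of 8 of Nfibf/f. The region at 98.3 kb (chr6:112848312-112849574) had 0 of 6 and 8 of 8 at a median fold percentile of 83.6. Beside it, the region of the gene with the highest mean percentile, 82.1 (chr6:112850789-112851558), was open in the 3 RPR2 lines and 1398M1 and closed elsewhere.

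Srgap1 (chr10:121780991-122047911) had 15, 15.5 and 19.5 regions in 12N1G, N2N1G and 1373M1 and 16.5, 18, 13.5 and 16 in the Nfibf/f lines 1398M1, 1399M4, 1398P2 and 1399P1. The log2 difference was 0.06 ± 0.15 (SE; limma adjusted p = 0.888). A region 28.4 kb from its start (chr10:122018530-122019240) was called in 6 of 6 libraries of RPR2 and in 0 of 8 of Nfibf/f. The region at 174 kb (chr10:121872763-121873783) had the highest mean fold percentile of the gene, 86.1, and a peak in every library.

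Srgap2 (chr1:131285251-131527531), which shapes dendritic spines and neuronal migration, had 9, 10 and 8 regions in 12N1G, N2N1G and 1373M1 and 7.5, 10.5, 4.5 and 14 in 1398M1, 1399M4, 1398P2 and 1399P1. Both the lowest and the highest line were lung tumor lines, and the log2 difference was 0.09 ± 0.24 (SE; limma adjusted p = 0.898). The region with its highest mean fold percentile, 96.3 (chr1:131400849-131401289), was called in 5 of 8 Nfibf/f and 0 of 6 RPR2 libraries. It was open in 1399M4 and 1399P1. The remaining library with this peak was replicate 1 of 1398P2, whose replicate 2 had the lowest depth.

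**Figure D4:**
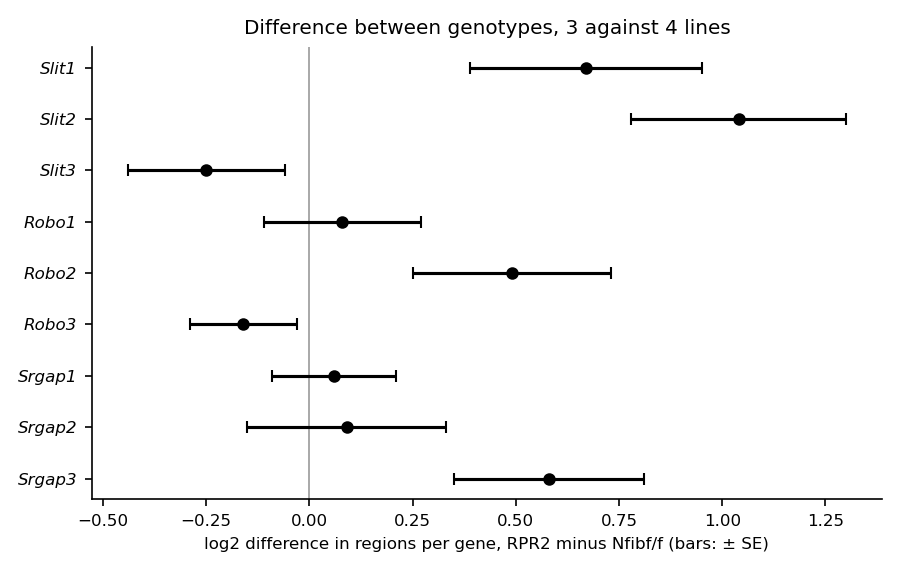
The log2 difference in regions per gene, RPR2 minus Nfibf/f (horizontal axis, points; bars are ± SE from limma, 3 against 4 lines), for the 9 tested genes. Slit2 lies at 1.04, Slit1, Srgap3 and Robo2 lie between 0.49 and 0.67, and the bars of Robo1, Srgap1 and Srgap2 cross 0.

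Over the whole list, 7 of the 246 regions open in a line were specific to RPR2, that is, open in its 3 lines and closed in the 4 Nfibf/f lines. This was 2.85%, against 1.21% of all regions. They lay in Slit2, Slit3, Robo1, Robo2, Srgap1 and, with 2, in Srgap3. In the other direction 3 regions were specific to Nfibf/f, 1.22% against 0.639% of all, in Slit3, Robo2 and Srgap3. Slit3, Robo2 and Srgap3 each held regions of both kinds. Without replicate 2 of 1398P2 there were 7 and 4, and with 1373M1 left out 18 were specific to the 2 lymph node lines of RPR2. Both counts depended on how a region was called, as given in the closing section. Shares over all regions are not given for these alternatives.

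**Figure D5:**
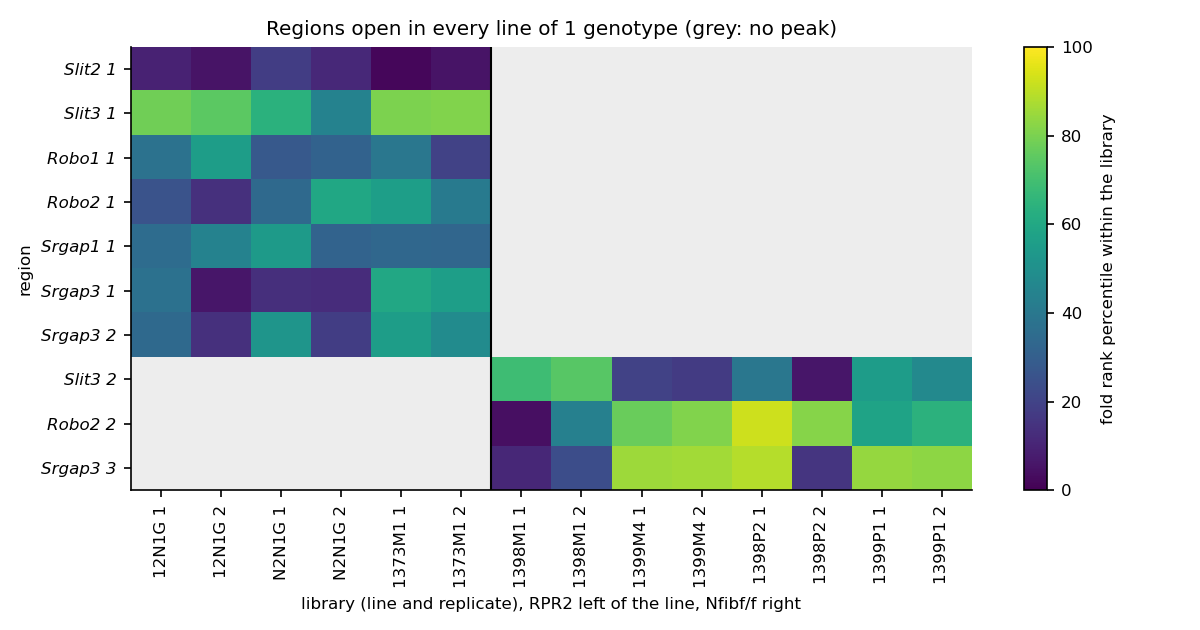
Fold rank percentile within each library (color; 100 is the strongest peak, grey is no peak) for the 10 genotype-specific regions (rows, numbered along the chromosome within a direction and gene) in the 14 libraries (columns). The Slit2 region is weak in every RPR2 library, at 1.8 to 18.1, whereas the first Slit3 region lies at 44.2 to 81.0.

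By line, 19 of the 246 regions (7.72%, against 2.82% of all) were open in 1373M1 and closed in the other 6 lines, of which Slit1 and Robo1 held 5 each. For 1399M4, the line with the most such regions over all genes, there were 10 (4.07%, against 5.95%). Regions open in both lymph node lines alone numbered 11 (4.47%, against 3.0%), with 4 in Robo2, 3 in Srgap3 and 2 in Slit1.

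With 4 groups of genotype and tissue, limma called none of the 9 genes in any of 3 contrasts. Within liver metastases, RPR2 against Nfibf/f gave 1 of 9 at an unadjusted p under 0.05, Slit2, at 1.10 ± 0.40 (SE; limma adjusted p = 0.297); over all genes 1.13% were called and 13.2% had an unadjusted p under 0.05. That contrast sets the 10 Slit2 regions of 1373M1 against 6 in 1398M1 and 3.5 in 1399M4. Liver metastasis minus lung tumor within Nfibf/f gave Slit1 at 0.72 ± 0.26 (limma adjusted p = 0.734; 0.099% called and 6.42% at an unadjusted p under 0.05). This rests on 1398P2: it was 0.33 without that line, where 1399P1 alone stands for lung tumors and is assumed to vary like the other groups, 0.61 without its replicate 2 and 1.51 without its replicate 1 (limma adjusted p = 0.758, 0.508 and 0.784). Lymph node minus liver metastasis within RPR2 gave Robo1 at -0.52 ± 0.22 (limma adjusted p = 0.366; 1.82% called and 12.8% at an unadjusted p under 0.05), with 16 and 17.5 regions in the lymph node lines and 24 in 1373M1.

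Other genes of the pathway were taken from a list of 35 binding partners, adaptors and effectors, of which 26 were tested. Their log2 differences were positive for 13 and negative for 13, with a median of 0.00, as over all genes. At an unadjusted p under 0.05 there were 4 with more regions in RPR2 lines and 3 with more in Nfibf/f lines, where 21.9% of all genes passed in either direction, and 1 of 26 passed adjustment, where 1.41% did. Flrt1, a member of a family of transmembrane proteins that bind Robo and Unc5 receptors, passed limma's test. It had 15.5, 16.5 and 16.5 regions in 12N1G, N2N1G and 1373M1 and 10, 9, 6 and 11.5 in 1398M1, 1399M4, 1398P2 and 1399P1, with no overlap. The log2 difference was 0.83 ± 0.15 (SE; limma adjusted p = 0.0433). The call was lost in 13 of 31 alternatives (adjusted p from 0.0106 to 0.213), among them each of 12N1G, N2N1G, 1399M4, 1398P2 and 1399P1 left out, and replicate 2 of 12N1G, replicate 2 of N2N1G or replicate 1 of 1398P2 left out. Local background at Flrt1 was 5.52 to 7.96 times the floor in RPR2 libraries. In Nfibf/f libraries it was 1.13 times in replicate 2 of 1398P2 and 4.29 to 8.69 times in the others. Apart from 1398M1 (7.7 and 8.69), every Nfibf/f library lay below the RPR2 libraries. The part of this background in the Flrt1 result was not tested.

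Among the pathway genes that did not pass, Ntn1, which encodes the guidance ligand netrin-1, had means of 15.17 and 8 regions in RPR2 and Nfibf/f lines, 0.92 on the log2 scale (limma adjusted p = 0.0722). Plxna1, a semaphorin receptor gene that also encodes a receptor for a Slit fragment, differed by 0.59 on the log2 scale (limma adjusted p = 0.0999). Myo9b, an unconventional myosin gene, and Cap1, an actin regulator, had the largest negative differences, -0.79 and -0.78 (limma adjusted p = 0.106 and 0.451).

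The genes whose log2 regions over the 7 lines followed those of Slit2 most closely were Soga1, Arsi and Dgkb, with Pearson correlations of 0.993, 0.99 and 0.989. For Robo1 they were Alox5ap, Upf1 and Prrxl1, with 0.964, 0.957 and 0.946. These correlations are over 7 points that share library, depth and genotype, were picked as the highest of all tested genes, and are given as a description.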

How the data were processed

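The 10 genes, the pathway and marker lists and the tests were chosen with earlier results of these data known, and the bases under peaks and the division of Robo1 and Robo2 were added after seeing the data. The submitters' processing notes name MACS2, SAMtools, Picard, Bowtie2 and cutadapt 2.10 and the builds mm10 and GRCm38; how each was set, and whether reads were shifted to the cut position, is not given in the sources used here. The deposited values were 1 peak list per library, with a fold enrichment (a ratio to local background) and a -log10 p-value and -log10 q-value per summit, as the authors gave them. The lowest -log10 q was 1.3. Lists hold no counts, so a missing peak means absence at that depth.

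Peaks overlapping by 1 bp were merged. A gene's value in a line was the mean over 2 libraries of its regions open in at least 1 line, scaled by the total of the line and analysed as log2 of the value plus 0.5, which understates changes at low numbers. The 7070 genes averaging 3 regions or more were tested with limma 3.58.1 in R 4.3.3 (moderated by empirical Bayes with trend), with Benjamini-Hochberg adjustment over all at 0.05. Fold percentiles rank peaks within a library and were not compared between libraries. Depth and local background were solved from fold and p under MACS2's Poisson model; 100% of 1192565 pileups with a -log10 p under 250 were whole within 0.02, and the lowest background of a library is its floor. Gene extents and starts came from RefSeq tables of GRCm38.p6; exons were not used here. Merging and fits were tested on simulated data. Genes named are all 10 members, pathway genes that passed or with the largest differences (Plxna1 was chosen after its values were seen), the 3 genes most like Slit2 and Robo1, and regions that were genotype-specific, at a start or end, or highest in mean fold percentile; others were chosen after their values were seen.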

Additional observations from a re-analysis of the deposited data

How the results depend on the processing

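No member passed adjustment in the main comparison of genotypes, and 1, Slit2, passed without line 1398M1 and 1 in the fit of 14 libraries with a replicate block (log2 difference 1.07, limma adjusted p = 0.0304), where 4.84% of all genes were called. Replicate numbers did not pair the lines: deviations of same-numbered libraries correlated at over 0.1 in 2 of 21 pairs of lines (range -0.1 to 0.11). With a library left out, 0 members were called each time. In the contrasts of tissue and genotype 0 were called in each of the 24 alternatives run, the replicate block included. RPR2-specific member regions numbered 14 when either library sufficed, 4 with equal numbers of peaks per library and 18 without line 1373M1. Those specific to Nfibf/f numbered 10 when either library sufficed, 0 with equal numbers and 0 at a -log10 q of at least 3. Shares over all regions are not given for these alternatives, so a change in the members alone cannot be told from a change in all regions. Differences near 0 changed sign: Slit3 to 0.132 and Srgap2 to -0.08 within liver metastases, Srgap2 to -0.10 without line 1398P2, Robo3 to 0.001 without line 1398M1, Robo1 to -0.023 and Srgap1 to -0.201 with equal numbers of peaks, Robo1 to -0.074 over all merged regions (chosen after seeing the data), and Robo1 to -0.04 and Srgap1 to -0.012 without line 1373M1. With 1 library left out at a time, Robo1 ranged from -0.040 to 0.134, Robo3 from -0.370 to 0.066, Slit3 from -0.357 to -0.080, Slit1 from 0.577 to 1.06 and Srgap1 from -0.002 to 0.142. The cause was not tested. Slit2, Slit3 and Robo3 were not among the genes tested with equal numbers of peaks. The depth of replicate 2 of 1398P2 limits every absence in that line.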
